A study of Rattus norvegicus with 10 samples.

Results

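The genes described here encode the kainate-type glutamate receptor subunits Grik1, Grik2, Grik3, Grik4 and Grik5 and the delta-type subunit Grid1. Each of the 6 genes was measured by 1 probe set, so they are 6 of 14217 genes and 6 of 31042 probe sets measured. A member was any probe set whose platform annotation names 1 of these genes and no other. Brains of male Wistar rats aged 7 weeks were split at the midline, and total RNA of the right part, with all its regions pooled, went onto Affymetrix arrays. The DMHF group was 5 rats that breathed vapor of DMHF, a dimethylated hydroxyfuranone with a sweet fruit aroma, for 5 min. The control group was 5 rats that breathed vapor of distilled water in the same apparatus, with 5 mL of liquid in the flask. All rats were killed after a wait of 10 min, before their dark period, and each array carried the RNA of 1 rat. The question put to the data was whether the transcripts of these receptors differed in the brain shortly after the odor.

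Kainate receptors are tetrameric cation channels that open when glutamate binds. Grik1, Grik2 and Grik3 encode the subunits that can form channels by themselves, while Grik4 and Grik5 encode high-affinity subunits that need a partner from the other class. They act on both sides of the synapse, where they tune transmitter release and carry a slow current, and in rodents they are best known at the mossy fiber synapses of the hippocampus. Grid1 encodes a delta subunit, which belongs to the same protein family by sequence but is known mainly as a synaptic organizer that binds cerebellins and, through them, presynaptic neurexins.

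The arrays differed very little from each other on the deposited log2 scale, and this sets the unit of all values below. A value is given as a deviation from the control mean of the same probe set in millionths of a log2 unit. It is set beside the values of other rats for the same probe set only. It cannot be read as a fold change of RNA, and cannot be compared between probe sets. The pooled within-group standard deviation (SD) of a probe set, with a median of 2.17 millionths over all probe sets, serves as the second unit. The 10 array medians all lay at 7.24 but spanned 15.18 millionths, more than the difference of any receptor gene below, and 0 pairs of arrays were identical. Shifting the arrays to a common median moves the difference of every probe set by the same amount, from -0.608 to -0.654 millionths for Grik1. All 6 differences kept their sign, which with so small a shift says little about single genes. Their standard errors (SE) widened. Quantile normalization, which sets each value by its rank on the array, left only Grik1 of the 6 genes with any variation between arrays. Whether the values of the other genes differ between rats beyond shifts of whole arrays was not tested. Because whole tissue was measured, fewer cells of a type and less RNA per cell cannot be told apart. The tissue label was checked against cell type markers. Camk2a and Nrgn of excitatory neurons lay 4.50 and 4.54 log2 units above the array median, Gad1 of inhibitory neurons 4.83, Gfap of astrocytes 3.88 and Mbp of oligodendrocytes 6.55. Gabra6 of cerebellar granule cells, at 3.88 above the median, and Prox1 of dentate granule cells, at 1.42 above it, had signal as well. The dimmest markers of these lists, in the same order of cell types, lay closer to the array median. They were Neurod2 at 1.15, Gad2 at 1.14, Aldh1l1 at 1.34, Mag at 2.90, Zic1 at 0.81 and Dsp at -0.48 log2 units from it.

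None of the 6 receptor genes passed the test for a difference between DMHF and control rats. With limma and Benjamini-Hochberg adjustment, 0 of 6 passed an adjusted p of 0.05, against 0.0% of all 31042 probe sets. Without adjustment 0 of 6 had a limma p under 0.05, against 5.48% of all probe sets, of which 3.23% were higher and 2.25% lower in DMHF. The exact two-sided permutation test over every assignment of the 10 rats likewise had 0 of 6 at an unadjusted p under 0.05, against 5.14% of all probe sets, and 0.0% of them after adjustment. The groups overlapped for every one of the 6 genes, and they failed to overlap for 0.867% of all probe sets, 0.535% with every DMHF rat above and 0.332% with every DMHF rat below the controls. Group means were nominally lower in DMHF for 4 genes, all of them kainate subunits, and nominally higher for Grik3 and Grid1, against 46.8% of all probe sets lower and 53.2% higher. The median size of the difference, without its sign, was 0.694 within-group SD for the 6 genes and 0.458 SD for all probe sets.

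**Figure D1:**
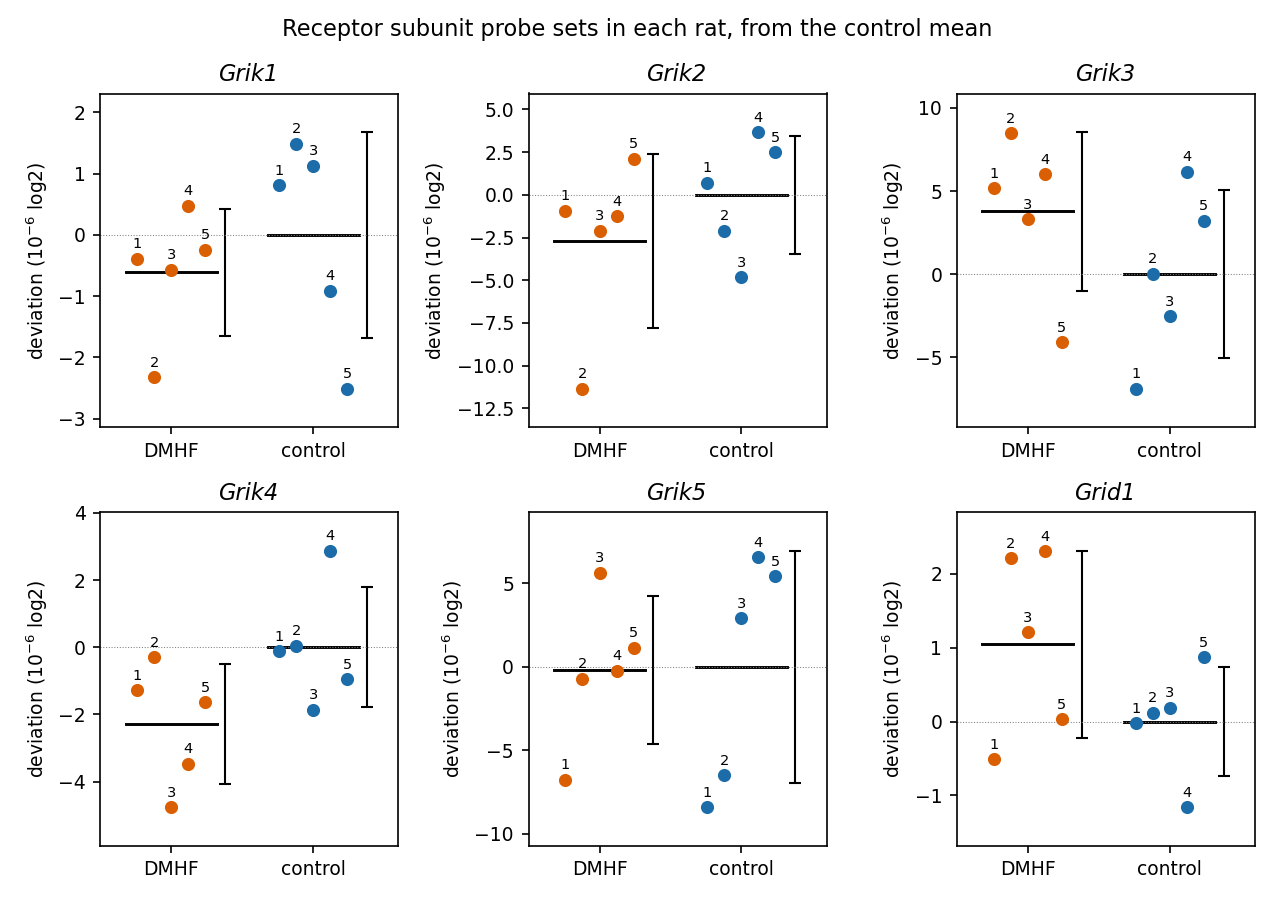
Deviation of each rat from the control mean of the probe set, in millionths of a log2 unit, for the 6 receptor genes, with DMHF rats (orange) left of control rats (blue). Numbers are the rats' replicate numbers, horizontal bars are group means, and vertical bars are 1 SD about the mean (n = 5 rats each). The groups overlap in all 6 panels, and the scale differs between panels.

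Among the channel-forming subunits, Grik1 showed the smallest difference in SD units. Grik1 stood at -0.39, -2.32, -0.57, 0.48 and -0.24 in DMHF rats 1 to 5, against 0.81, 1.49, 1.13, -0.91 and -2.51 in control rats 1 to 5. All 5 DMHF rats fell within the range of the controls, and the lowest rat of all was a control. The difference was -0.608 millionths (SE 0.867), or -0.435 within-group SD, and a DMHF rat was higher than a control rat in 9 of 25 pairs. Its limma p was 0.501 (adjusted p = 1.0), and the exact permutation p was 0.524. The 95% interval ran from -1.84 to 0.972 SD.

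Grik2, which encodes the subunit most often tied to kainate currents of the hippocampus, depended on a single rat. Its values were -0.92, -11.35, -2.11, -1.25 and 2.12 in DMHF rats 1 to 5, against 0.71, -2.09, -4.81, 3.68 and 2.51 in control rats 1 to 5. DMHF rat 2 lay far below every other rat, and the remaining 4 DMHF rats fell inside the control range. The difference was -2.70 millionths (SE 2.63), or -0.621 SD, with a limma p of 0.331 (adjusted p = 1.0) and an exact permutation p of 0.397. Without DMHF rat 2 the difference was -0.538 millionths, of the same sign and within the spread of the rats.

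Grik3 was the channel-forming subunit whose mean was higher in DMHF. Its values were 5.17, 8.48, 3.32, 6.01 and -4.11 in DMHF rats 1 to 5, against -6.89, 0.02, -2.52, 6.17 and 3.22 in control rats 1 to 5. In the DMHF group 4 rats clustered at positive values and rat 5 lay among the low controls, while the controls were spread on both sides of 0, and DMHF rat 2 lay above every control. The difference was 3.78 millionths (SE 2.97), or 0.767 SD, and a DMHF rat was higher in 18 of 25 pairs. It did not pass the test (limma p = 0.236, adjusted p = 0.988, exact permutation p = 0.254). Without DMHF rat 5 it stood at 5.75 millionths, with an unadjusted p of 0.0581 in the limma fit across all probe sets. It stood at 2.05 millionths without control rat 1. The mean of Grik3 lay 0.75 log2 units under the array median, where whether the probe set measures a brain transcript was not tested.

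Of the high-affinity subunits, Grik4 had the largest difference of the 6 genes in SD units. Grik4 stood at -1.27, -0.30, -4.76, -3.47 and -1.63 in DMHF rats 1 to 5, against -0.12, 0.05, -1.86, 2.88 and -0.95 in control rats 1 to 5. All 5 DMHF rats lay below the control mean and 2 of them, rats 3 and 4, lay below every control, while the other 3 overlapped with the controls. A DMHF rat was higher than a control rat in 4 of 25 pairs. The difference was -2.29 millionths (SE 1.10), or -1.28 SD, with a 95% interval of -2.67 to 0.113 SD that includes 0. It did not pass the test (limma p = 0.0674, adjusted p = 0.931, exact permutation p = 0.0794), and 8.34% of all probe sets had a difference at least as large in SD units in either direction. The unadjusted limma p of Grik4 was 0.0378 without DMHF rat 2, 0.0415 without control rat 3 and 0.0396 with array weights, but 0.424 with a common array median, where the SE was 2.80. The difference was -1.57 millionths without control rat 4, the highest of the controls.

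Grik5, the other high-affinity subunit, had group means that nearly coincided and rats that did not. Its values were -6.78, -0.73, 5.64, -0.23 and 1.13 in DMHF rats 1 to 5, against -8.42, -6.49, 2.90, 6.58 and 5.43 in control rats 1 to 5. DMHF rat 1 and control rats 1 and 2 were low, and the other 7 rats lay between -0.73 and 6.58. The difference was -0.196 millionths (SE 3.53), or -0.0335 SD (limma p = 0.957, adjusted p = 1.0, exact permutation p = 0.968), and 95.9% of all probe sets had a difference at least as large in SD units. The within-group SD of Grik5 was 5.85 millionths, and its 95% interval of -8.19 to 7.80 millionths includes differences in either direction. The sign of its difference turned with the setting, to 0.408 with array weights and to between 0.529 and 1.45 without DMHF rat 1 or any of control rats 3, 4 or 5.

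For the delta subunit Grid1 the mean was higher in DMHF. Grid1 stood at -0.51, 2.21, 1.21, 2.31 and 0.03 in DMHF rats 1 to 5, against -0.02, 0.12, 0.19, -1.16 and 0.87 in control rats 1 to 5. DMHF rats 2, 3 and 4 lay above every control, and DMHF rats 1 and 5 lay among the controls. The difference was 1.05 millionths (SE 0.659), or 1.01 SD, with a 95% interval of -0.429 to 2.46 SD. It did not pass the test (limma p = 0.146, adjusted p = 0.955, exact permutation p = 0.167), and 15.7% of all probe sets differed by at least as much in SD units. Without DMHF rat 1 it stood at 1.44 millionths with an unadjusted limma p of 0.0466. Without any 1 of the other rats the limma p of Grid1 ran from 0.0956 to 0.300. With a common array median the SE of Grid1 was 3.01 and its limma p 0.745. The mean of Grid1 lay 0.61 log2 units under the array median.

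**Figure D2:**
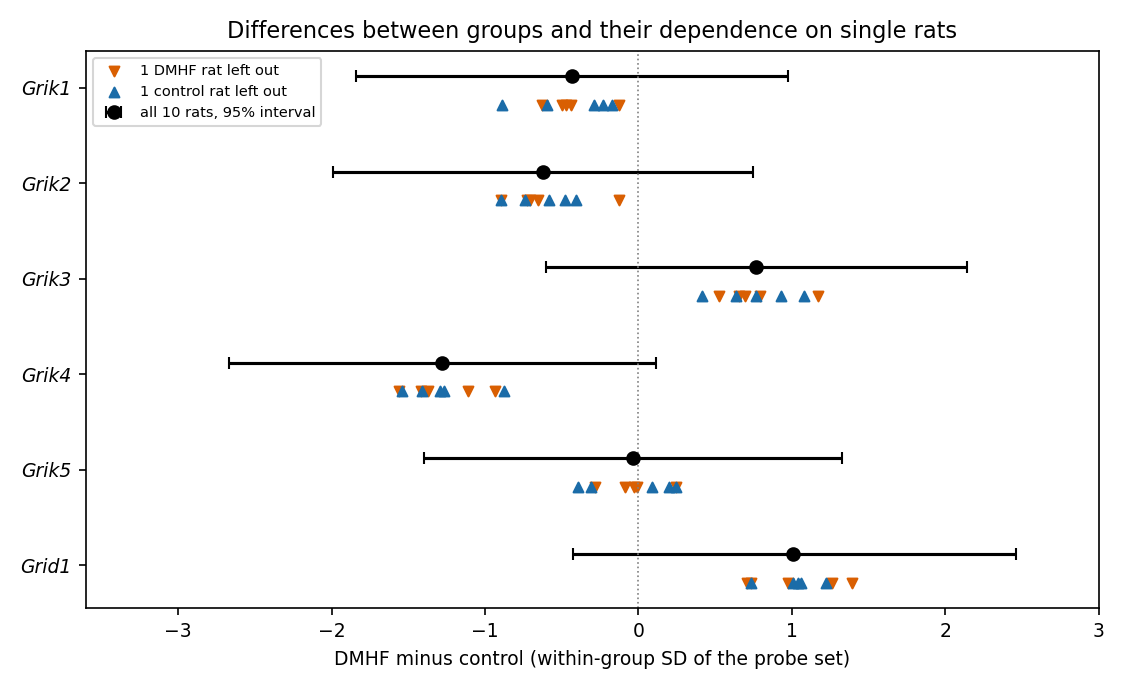
Difference between DMHF and control in units of the within-group SD of each probe set. Black points with bars are the values of all 10 rats with the 95% limma interval, orange triangles the values with 1 DMHF rat left out, and blue triangles those with 1 control rat left out. Each interval includes 0, Grik4 lies farthest below it at -1.28 SD and Grid1 farthest above at 1.01 SD, and only Grik5 has triangles on both sides of 0.

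No joint variation of the 6 genes between rats was detected. After group means were subtracted, Pearson r over the 10 rats lay between -0.55 and 0.36 in the 15 pairs of genes, 7 of them positive and 8 negative. By an exact permutation test that reordered rats within groups (14400 reorderings, two-sided), 0 of 15 pairs had an unadjusted p under 0.05, and the smallest Benjamini-Hochberg adjusted p over the 15 pairs was 0.808 for Pearson r and 0.687 for Spearman rho. The pair of Grik1 and Grik3 had the lowest r at -0.55 (rho -0.58, exact p = 0.124 and 0.117, adjusted p = 0.808 and 0.687), with -0.41 in DMHF rats and -0.65 in control rats, and -0.40 without the 2 rats farthest from the median of Grik1. Grik3 and Grik5 had the highest r at 0.36 (rho 0.30, exact p = 0.338 and 0.441, adjusted p = 0.808 and 0.687), but it was -0.29 in DMHF rats and 0.77 in control rats. Without the 2 rats farthest from the median of Grik3 that r was 0.22. Grik1 and Grik2 had an r of 0.02 (rho -0.28) that joined 0.88 in DMHF rats and -0.76 in control rats, and whether these differ was not tested. DMHF rat 2 was the lowest of its group in both genes. Without the 2 rats farthest from the median of Grik1, the r over the remaining rats of both groups was -0.66. The high-affinity subunits Grik4 and Grik5 had an r of -0.15.

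**Figure D3:**
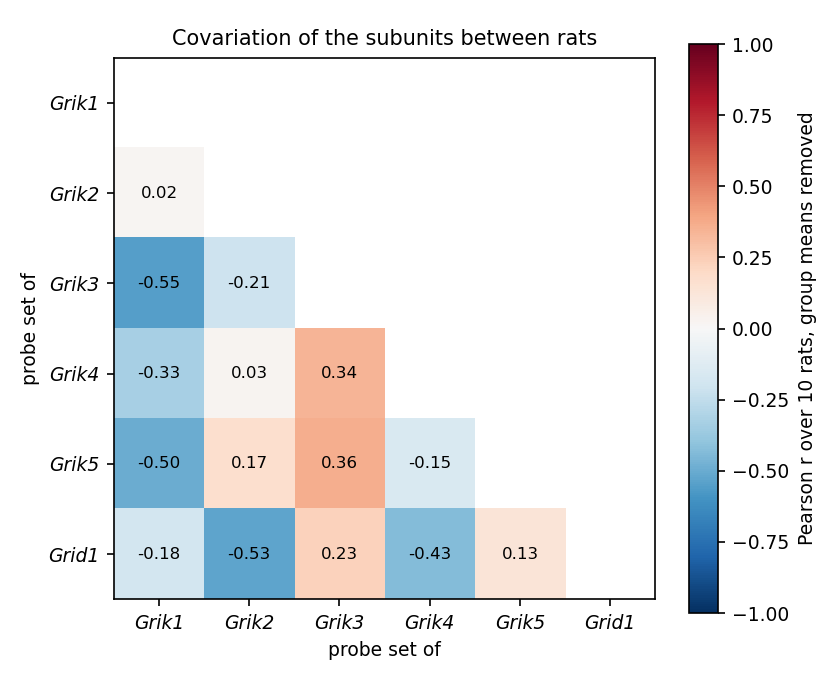
Pearson correlation between the probe sets of the 6 receptor genes over the 10 rats after subtraction of group means. Red cells are positive, blue cells negative, and values run from -0.55 (Grik1 and Grik3) to 0.36 (Grik3 and Grik5), with none past an adjusted p of 0.05.

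Each receptor gene was also set against 13982 other named genes to find those whose values varied most like it over the 10 rats. These are the highest of very many coefficients from 10 arrays that share their processing, and they are given as a description. For Grik5 they were Cdk5, a neuronal kinase, Smg5, a factor of nonsense-mediated decay, and Rpl14, a ribosomal protein, at r = 0.98, 0.97 and 0.96. Cdk5 stood at -1.71, -0.55, 0.38, -0.27 and -0.39 millionths in DMHF rats 1 to 5, against -1.56, -0.66, 0.29, 1.11 and 0.82 in control rats 1 to 5, so the 3 rats low in Grik5 were also the 3 lowest in Cdk5. An r over 0.8 with Grik5 was found for 251 genes, or 1.80%, against 34 to 147 genes for Grik4, Grik1, Grik3, Grik2 and Grid1. The nearest genes to Grik2 were Exosc10 and Pdcd11, both of ribosomal RNA processing, at r = 0.96 each, and Plk4, a centriole kinase, at 0.93. For Grik3 they were Mef2b, Nop10 and Rbm19 at 0.96, 0.95 and 0.91, and for Grik4 they were Asxl3, Nadk and Tmed9 at 0.89 each. For Grik1 they were Ptbp1, Cryzl2 and the netrin receptor gene Dcc at 0.93, 0.92 and 0.91. Grid1 was nearest to Pklr, Bhlha15 and Brme1 at 0.94, 0.93 and 0.93.

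Proteins that assemble, anchor or modify kainate receptors were nominally lower in DMHF for 9 of 11 measured genes, with 0 past the test in either direction. At an unadjusted limma p under 0.05 there were 0 genes in this list, 0 in the next 3 lists and 1, Grin2a, among the AMPA and NMDA subunits, against 4.80% of all genes. Over all 14217 genes 6680 were nominally lower. The median difference of the list was -0.560 within-group SD, and that of all genes was 0.0477 SD. C1ql3, a synaptic protein that recruits kainate receptors at mossy fiber synapses in mice, differed by -6.58 millionths (SE 3.15), or -1.26 SD (limma adjusted p = 0.931). A dimmer probe set of C1ql3 went the other way, at 1.31 SD (limma adjusted p = 0.942). The scaffold gene Cask differed by -2.60 millionths (SE 1.48), or -1.06 SD, and its dimmer probe set by -0.427 SD. Neto1, an auxiliary subunit that slows kainate receptor gating, differed by -30.4 millionths (SE 27.6), or -0.662 SD (limma adjusted p = 0.995). In Neto1 3 DMHF rats lay below every control, and its mean lay at -0.17 log2 units from the array median. The postsynaptic scaffold Dlg4 differed by -0.647 SD on its brightest probe set, while its 3 other probe sets stood at -0.677, 0.811 and 0.878 SD. With the probe set of largest spread in place of the brightest, 10 of 11 genes were nominally lower and the median was -0.414 SD. There 1 gene had an unadjusted limma p under 0.05, against 5.47% of all genes.

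Partners of delta receptors were nominally lower for 4 of 5 measured genes and 0 passed the test. Their median was -0.112 SD. On the probe set of largest spread, 3 were lower and 2 higher, and the median was -0.179 SD. There 1 of 5 genes had an unadjusted limma p under 0.05, against 5.47% of all genes. The cerebellin gene Cbln2 differed by -0.249 millionths (SE 1.35), and the neurexins Nrxn2 and Nrxn3 by 0.180 (SE 0.461) and -0.806 (SE 0.915). Ptpn4, a phosphatase that binds delta receptors, differed by -0.768 millionths (SE 0.656), or -0.745 SD, on its brightest probe set and by -1.68 SD on another (limma unadjusted p = 0.0211, adjusted p = 0.868). All 3 probe sets of Ptpn4 had a negative difference.

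The RNA editing family, which includes the enzymes that edit the messenger RNA of Grik1 and Grik2 at the pore, had differences under 1 SD in size. Adarb1 differed by -0.730 millionths (SE 0.640), or -0.728 SD, Adarb2, a brain-specific relative with no known editing activity, by -0.333 SD, and Adar by 0.184 SD, with 0 of 3 past the test. Editing itself is not visible in these values.

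Genes of glutamate transport and metabolism were nominally higher for 4 and lower for 4 of 8 measured genes, 0 past the test, with a median of 0.0264 SD. With the probe set of largest spread, 6 were higher and 2 lower, and the median was 0.284 SD. On that choice 1 of 8 genes had an unadjusted limma p under 0.05, against 5.47% of all genes. The astrocyte transporters went nominally opposite ways, with Slc1a2 at -8.20 millionths (SE 5.82), or -0.848 SD, and Slc1a3 at 1.16 (SE 0.925), or 0.778 SD. Other probe sets stood at -0.483 SD for Slc1a2, and at 1.20 and 0.108 SD for Slc1a3. In Slc1a3 control rat 3 lay far below the other controls. The mean of Slc1a2 lay only 0.45 log2 units above the array median. The vesicular transporter Slc17a6 differed by 23.1 millionths (SE 20.8), and Slc1a6, the transporter of Purkinje cells, by 22.7 (SE 29.7).

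Of the AMPA and NMDA receptor subunits, 6 of 11 were nominally lower and 5 higher, with 0 past the test and a median of -0.568 SD. The lowest were Grin2a at -48.5 millionths (SE 18.4), or -1.59 SD (limma adjusted p = 0.868), and Grin2b at -9.15 millionths (SE 4.12), or -1.34 SD, beside -1.28 SD for Grik4. The other probe sets of Grin2a stood at -254 millionths (SE 72.8), or -2.10 SD (limma adjusted p = 0.787), and at -1.04 SD, and that of Grin2b at -0.732 SD. Gria1 stood at -0.999 SD, and Grin3b at 1.35 SD was the highest. On the probe set of largest spread, 7 were nominally lower and 4 higher, and the median was -0.570 SD. There 2 of 11 genes had an unadjusted limma p under 0.05, against 5.47% of all genes. Whether kainate subunits differ from these in their response was not tested.

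**Figure D4:**
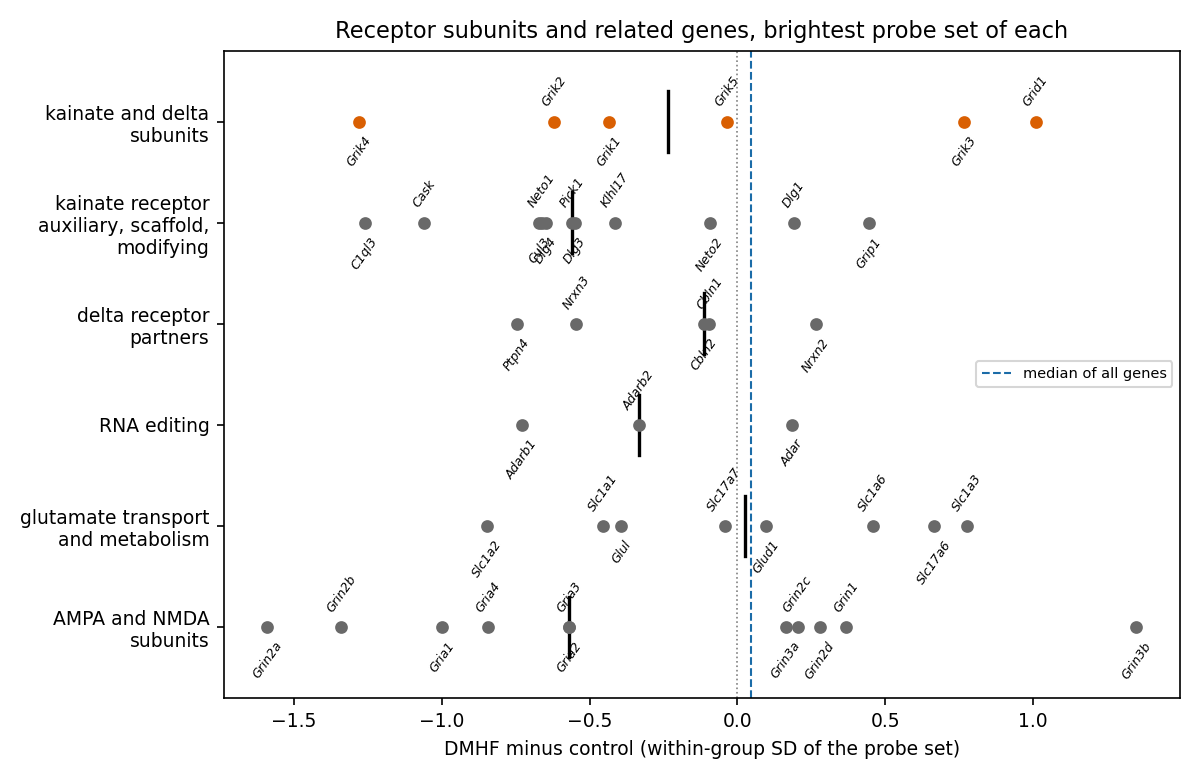
Difference between DMHF and control, in within-group SD of the brightest probe set, for the 6 receptor genes (orange) and for 5 lists of related genes (grey). Black bars mark the median of each row and the dashed line the median of all genes at 0.0477 SD. Differences run from -1.59 SD (Grin2a) to 1.35 SD (Grin3b), and none passed the test.

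Markers of other cell types were read beside these values. Over 14 marker lists with 67 measured genes, 0 genes passed limma over all probe sets. At an unadjusted limma p under 0.05 there were 6 of the 67, against 4.80% of all genes. On their brightest probe sets, all 7 markers of striatal projection neurons and all 5 of excitatory neurons were nominally lower. Their medians were -0.447 and -0.299 SD. All 3 measured markers of dentate granule cells were nominally higher, with a median of 0.663 SD, the value of Calb1. Calb1 was also in the Purkinje list, where all 5 markers were higher, with a median of 0.46 SD. Of the astrocyte markers 4 were higher and 1 lower, with a median of 0.774 SD. With the probe set of largest spread, 4 of 5 markers of excitatory neurons were nominally lower and 1 was higher, at 1.67 SD. For astrocytes 3 were then higher and 2 lower, with a median of 0.108 SD. All 5 choroid plexus markers and all 4 ependymal markers were nominally higher, with medians of 0.778 and 1.29 SD, as were 5 of 6 pituitary markers at 0.935 SD. In each of the other lists, more markers were nominally lower than higher on their brightest probe sets, while 53.0% of all genes were nominally higher. With the probe set of largest spread this did not hold in 3 of them. Microglia then had 3 higher and 2 lower, inhibitory neurons 3 and 3, and cerebellar granule cells 2 and 2. The mean standardised level of the choroid plexus markers ran from -0.596 to 1.69 SD in DMHF rats, against -1.79 to 0.687 SD in control rats. Among the pituitary markers, Cga and Tshb, which encode subunits of thyrotropin, differed most, by 2.58 and 1.98 SD (limma adjusted p = 0.730 and 0.815, exact permutation p = 0.00794 and 0.0317). Every DMHF rat exceeded the highest control in Cga, and 2 did so in Tshb. Of all probe sets, 0.535% had every DMHF rat above every control. An exact permutation p under 0.05 was found for 5.14% of them, and for 0.0% after adjustment. Gh1, Lhb, Prl and Pomc differed by 1.15, 0.718, 0.0398 and -0.448 SD. The 6 pituitary markers had means between -1.47 (Tshb) and 0.19 (Lhb) log2 units from the array median. The part of tissue composition in the differences of the receptor genes was not tested.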

How the data were processed

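The authors deposited 1 table of log2 values, taken as log2 from their range of 5.25 to 14.22, with 31099 probe sets and 10 arrays. R 2.7.2 is named in the submitters' processing notes. The sources used here do not state the background correction, normalization, summary method or array batches. After 57 control probe sets were left out, 31042 were tested. Per the labels' protocols, biotin-labelled RNA was made by 3' in vitro transcription, so subunit isoforms are not resolved. GEO's platform annotation named 20826 probe sets by 1 gene, 436 by several and 9780 by none here, and an NCBI rat gene table (GRCr8) held 20758 of the identifiers and changed 0 symbols.

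DMHF was compared with control with limma 3.58.1 in R 4.3.3 (lmFit, eBayes, two-sided, all 10 arrays, Benjamini-Hochberg over all probe sets). All SEs, 95% intervals and adjusted p values are from it, with 0.841 prior degrees of freedom. The fit was tested on simulated data. Related genes were represented by their brightest probe set. Named genes were all 6 members, up to 4 of smallest p in each list, and 3 most alike each member; marker genes were named for the tissue check after their values were seen. Members and lists were chosen with earlier results of these data known. The planned correlation between probe sets of a member gene could not be made with 1 probe set each, and correlations between members were added after seeing the data. The number of arrays limits precision.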

Additional observations from a re-analysis of the deposited data

Results flagged for a closer look

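Rats far from the rest of their group were sought in 50 groups of 5 rats, those of the 6 receptor genes and of the related genes named above, and chance gives about 1 in 20 groups. Of these, 1 group stood out. For Slc1a3, an astrocyte glutamate transporter, control rat 3 lay at -2.60 millionths, and the other 4 controls lay between 0.356 and 1.21. Its gap to the nearest control was 0.777 of the group's range, over the 0.71 that marks a distant sample among 5. No group of the 6 receptor genes passed that limit, and the nearest was Grik2 in DMHF rats at 0.686, where rat 2 was low.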

How the results depend on the processing

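The count of receptor genes past the test was 0 in all 17 alternatives in which they could be tested. Of 95 values of single receptor genes under these alternatives, 90 kept their sign and 5 did not, all of Grik5, which stood at -0.196 with all rats. They were 0.408 with array weights, 0.529 without control replicate 3, 1.45 without control replicate 4, 1.16 without control replicate 5 and 1.45 without DMHF replicate 1. Many of the kept signs could not have turned. The replicate block, other treatments of the variance and a restriction to brighter probe sets leave each difference unchanged by construction. A common array median moves every difference by the same small amount. Leaving out 1 rat gave ranges of -1.24 to -0.18 for Grik1, -3.91 to -0.538 for Grik2, 2.05 to 5.75 for Grik3, -2.78 to -1.57 for Grik4, -2.30 to 1.45 for Grik5 and 0.735 to 1.44 for Grid1. Over all alternatives the limma adjusted p ranged from 0.73 to 1.0 for Grik4 and from 0.717 to 1.0 for Grid1. Over all probe sets, 0 passed except with quantile normalization (13, of 10076 left with any variation) and without DMHF replicate 2 (1, Irgq, named after its values were seen). All 13 were constant within both groups after quantile normalization, which left only Grik1 of the 6 genes to test, at -3.27 millionths. Leaving out 1 rat gave 0 to 1 calls over all probe sets and 0 among the 6 genes. The split of unadjusted p under 0.05 was 1002 higher and 698 lower, 450 and 154 after quantile normalization, 208 and 333 with a common array median, and 287 and 413 in the brighter probe sets. With the replicate number as a block, 0 probe sets passed, and Grik4 had a limma p of 0.0809 and an adjusted p of 0.751. The block gave 2217 probe sets an unadjusted limma p under 0.05, against 1700 without it. The smallest limma adjusted p was 0.172 with the block and 0.698 without it. The number is not stated to pair rats, same-numbered rats correlated at 0.029 to 0.273, and 3 of 5 DMHF rats correlated best with their own number. DMHF and control rats of different number correlated at -0.184 to 0.204. Whether rats of the same number share a batch was not tested. A choice between probe sets of a member gene could not be run, since each has 1, and for related genes it left 0 calls. The step that left the arrays this alike is unstated in the sources used here.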
